A study of Sus scrofa with 6 samples.

Results

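A set of 10 genes of epithelial defence and inflammation was followed in keratinocyte clones grown from the surface of the pig eye. They were the chemokine genes CXCL14, CXCL8 and CCL20, the cytokine genes IL1A and IL6, the cyclooxygenase gene PTGS2, the S100 genes S100A8, S100A9 and S100A12, and the arginase gene ARG1. The genes were chosen by their function, with their differences between conjunctival and corneal clones on these same arrays already known. Those differences are therefore given as a description, with no test. Of the 10 genes, 9 had a probe set whose only annotated symbol was that gene, with 11 probe sets in all out of 23999 on the array. CCL20 was not analysed here. Where a gene had 2 probe sets, the one with the higher mean over the 6 arrays represents it, as for the 6765 genes named in this way.

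The study compared 3 conjunctival clones with 3 clones of the central cornea, both from biopsies of white domestic pigs (Sus scrofa), with 1 Affymetrix porcine array per clone. No treatment or mutation is labelled in either group. The run files of all 6 arrays carry a project entry that names an irradiation time course; what it refers to is not given in the sources used here, and the groups follow the labels. In both groups a feeder layer of irradiated mouse fibroblasts (3T3-J2) supported the cells, and each clone was founded by a single cell picked from a primary culture. The labels give 6 mm as the distance of the biopsy from the limbus, the border of the cornea, and name 2 animals without assigning clones to them. At least 2 of the 3 clones in each group therefore shared an animal.

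The surface epithelium of the eye meets microbes and injury directly and makes part of its own defence. Damaged keratinocytes release interleukin-1 alpha, which acts on the receptor IL1R1 and, through NF-kB, induces chemokines such as CXCL8 and the enzyme cyclooxygenase-2, the product of PTGS2. S100A8 and S100A9 together form calprotectin, which withholds zinc and manganese from microbes and is made by neutrophils and by stressed or differentiating keratinocytes. CXCL14 is a chemokine that many resting epithelia make without stimulation.

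The values are log2 array intensities made by the authors with the robust multi-array average (RMA), and the array medians lay between 4.40 and 4.48. Of 30 keratinocyte and epithelial markers 14 were measured, and 13 of these had a mean above the median of all probe sets, among them PERP, DSP, SFN and CDH1 at 13.2, 12.1, 12.9 and 11.1. The keratin genes KRT5 and KRT14 and the transcription factor gene TP63 were not analysed here. Of 20 measured leukocyte markers, 4 lay above that median (CD86, LAPTM5, AIF1 and CORO1A), while the pan-leukocyte gene PTPRC averaged 3.44. Of 7 measured neutrophil and mast cell markers 0 lay above it, with ELANE, which encodes neutrophil elastase, at 4.08. The mean of the leukocyte list was 4.25 to 4.51 in conjunctiva and 4.23 to 4.54 in cornea, and that of the neutrophil and mast cell list 3.81 to 4.01 in conjunctiva and 3.84 to 4.13 in cornea. In whole cultures, fewer cells of a type and less RNA per cell cannot be told apart. The part of the mouse feeder layer in any signal was not tested.

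**Figure D1:**
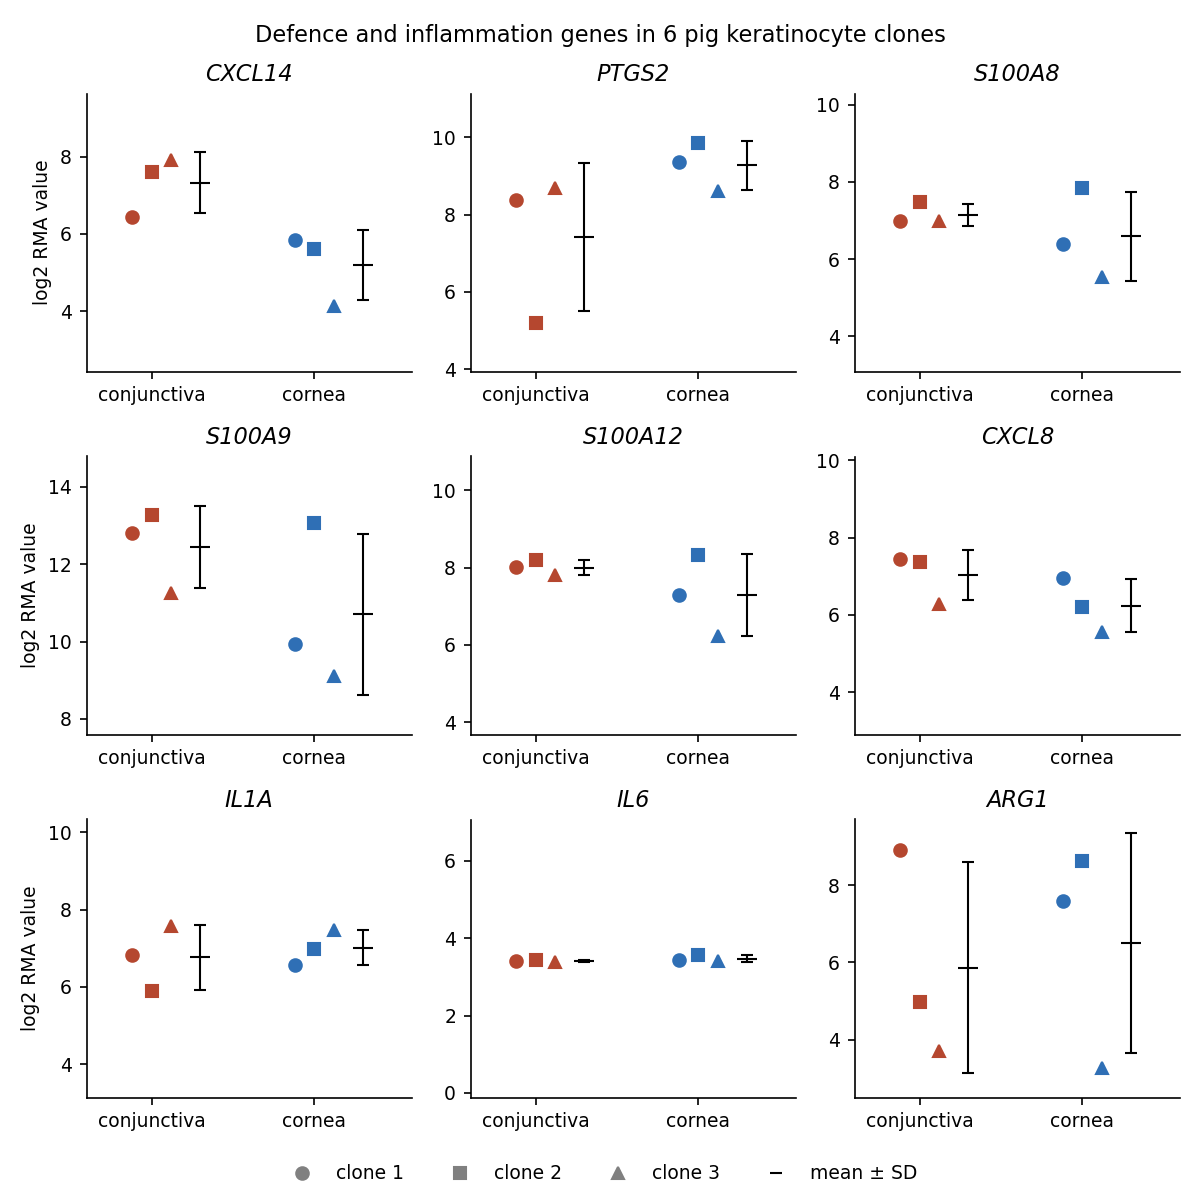
Log2 RMA value of each gene in each clone, conjunctiva in red and cornea in blue, with the symbol shape giving the clone number and the bar the mean ± SD of 3 clones; every vertical axis spans the same number of log2 units but starts at a different value. CXCL14 is the gene whose 3 conjunctival values (6.44 to 7.93) all lie above its 3 corneal values (4.14 to 5.83), and ARG1 spreads over both tissues (3.28 to 8.92).

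CXCL14 was higher in every conjunctival clone than in any corneal clone, and PTGS2 was low in 1 conjunctival clone. S100A8, S100A9 and S100A12 gave nearly the same order of clones, though within conjunctiva S100A8 and S100A12 lay close together. CXCL8 was somewhat higher in conjunctiva, IL1A was close to equal, and IL6 was near the lower end of the signal in all 6 clones. ARG1 was high in 3 clones and low in the other 3 without regard to tissue. The groups did not overlap for 1 of the 9 genes, CXCL14, and they did not overlap for 6.71% of all 6765 genes. The tissue means were at least 2-fold apart for 3 of the 9, with CXCL14 and S100A9 higher and PTGS2 lower in conjunctiva, and for 0.887% of all genes. These shares were not read further, because the 9 genes were picked with the same differences in view. Over all 23999 probe sets limma called 0 (0%) at an adjusted p of 0.05, with 648 at an unadjusted p under 0.05, and the unmoderated linear model also called 0, with 750.

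CXCL14 encodes the chemokine that attracts monocytes and dendritic cell precursors. It stood at 6.44, 7.61 and 7.93 in conjunctival clones 1, 2 and 3, against 5.83, 5.60 and 4.14 in corneal clones 1, 2 and 3 (log2). The lowest conjunctival clone lay 0.60 above the highest corneal clone, which bears the same number. The tissue means were 7.32 ± 0.78 in conjunctiva and 5.19 ± 0.92 in cornea (SD, n = 3 each), a difference of 2.13 (SE 0.55) or 4.38-fold. Corneal clone 3, at 4.14, lay below the array medians, where a dim signal may be compressed. Between same-numbered clones the conjunctival value was higher by 0.60, 2.00 and 3.78. Since the groups did not overlap, any pairing of the clones would give a higher conjunctival value in every pair. The gap was narrowest in the clones numbered 1 and widest in those numbered 3.

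The second CXCL14 probe set gave the same order of tissues at lower values. It read 4.05, 5.17 and 5.92 in conjunctiva and 4.01, 3.84 and 4.004 in cornea, so that conjunctival clone 1 was at the corneal level and clones 2 and 3 were above it. Its difference was 1.09 (SE 0.43). All 3 corneal values and that of conjunctival clone 1 lay below the array medians, so the size of this difference is not set against that of the first probe set. Both probe sets placed conjunctival clone 3 highest, clone 2 next and clone 1 lowest of that tissue.

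CXCL8, which encodes interleukin-8, the main chemokine for neutrophils, was at 7.43, 7.37 and 6.29 in conjunctival clones 1, 2 and 3, against 6.95, 6.20 and 5.57 in corneal clones 1, 2 and 3. The groups overlapped, since corneal clone 1 exceeded conjunctival clone 3. The means were 7.03 ± 0.64 in conjunctival clones and 6.24 ± 0.70 in corneal clones, a difference of 0.79 (SE 0.43) or 1.73-fold. Every conjunctival clone was above the corneal clone of its number, by 0.48, 1.17 and 0.72. In both tissues clone 3 had the lowest CXCL8. Without corneal clone 3 the difference was 0.45.

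The arrays were washed on 2 fluidics stations, of which station 1 held conjunctival clones 2 and 3 with corneal clone 1 and station 2 held conjunctival clone 1 with corneal clones 2 and 3. For CXCL8 the difference was -0.12 within station 1 and 1.55 within station 2, so its direction is not the same in both. For CXCL14 it was 1.94 and 1.56, and 1.75 with the station as a block. Each within-station value rests on a lone array of 1 tissue. The conjunctival arrays were washed on modules 1 and 2 and the corneal arrays on modules 3 and 4, so module and tissue cannot be told apart.

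The cytokine gene IL1A encodes the alarm signal that epithelial cells keep ready inside the cell. It stood at 6.82, 5.90 and 7.58 in conjunctival clones 1, 2 and 3, against 6.58, 6.99 and 7.48 in corneal clones 1, 2 and 3. Conjunctival clone 2 was the lowest and conjunctival clone 3 the highest of the 6, so that the corneal values lay inside the conjunctival range. The means were 6.76 ± 0.84 in conjunctival clones and 7.02 ± 0.45 in corneal clones, a difference of -0.25 (SE 0.44). The direction was not stable, with 0.18 without conjunctival clone 2, -0.02 without corneal clone 3, -0.66 without conjunctival clone 3 and -0.47 without corneal clone 1. Within stations 1 and 2 it was 0.16 and -0.41, and -0.13 with the station as a block. The second IL1A probe set, at 6.13, 5.27 and 6.76 in conjunctiva and 5.61, 6.59 and 6.83 in cornea, gave a difference of -0.29 and likewise had its lowest value in conjunctival clone 2.

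Interleukin-6, the product of IL6, drives the acute phase response. Its probe set read 3.42, 3.43 and 3.37 in conjunctival clones 1, 2 and 3, against 3.44, 3.57 and 3.41 in corneal clones 1, 2 and 3. All 6 values lay below the array medians and within 0.20 of each other. The difference of -0.07 (SE 0.10) ran from -0.10 to -0.02 when each clone was left out in turn. A signal this dim is near the lower end of what the array reads, and a difference in IL6 transcript could not be seen at this level.

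PTGS2 encodes cyclooxygenase-2, the inducible enzyme that commits arachidonic acid to prostaglandin synthesis. It was at 8.37, 5.21 and 8.68 in conjunctival clones 1, 2 and 3, against 9.37, 9.86 and 8.60 in corneal clones 1, 2 and 3. Conjunctival clone 2 stood apart from the other 5 clones, which lay between 8.37 and 9.86, and the groups overlapped through conjunctival clone 3 and corneal clone 3. The means were 7.42 ± 1.92 in conjunctival clones and 9.28 ± 0.64 in corneal clones, a difference of -1.86 (SE 0.91) or 3.63-fold lower in conjunctiva.

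Without conjunctival clone 2 that difference was -0.76, and between same-numbered clones it was -1.01, -4.66 and 0.08. Conjunctival clone 2 was washed on station 1, where the difference was -2.43, and within station 2 it was -0.87. The same clone had the largest 3' minus 5' signal of a pair of GAPDH control probe sets, a measure of RNA integrity. That signal was 0.97, against 0.55 to 0.58 in the other conjunctival clones and 0.25 to 0.60 in the corneal clones (log2). On the other GAPDH pair this clone was also highest, at 0.42, but nearer to the rest. The other conjunctival clones were at 0.23 and 0.36 there, and the corneal clones between -0.13 and 0.29. For the actin controls conjunctival clone 2 was at 0.93, inside the range of the others. Some marker genes were highest in it. FN1, which encodes fibronectin, was at 8.27 in conjunctival clone 2 and at 4.22 to 6.92 in the other 5 clones. The proteoglycan gene DCN was at 8.48 against 5.61 to 6.99, and THY1 at 12.24 against 9.66 to 11.23. FN1, DCN and THY1 have 4, 2 and 3 probe sets, and only the representing one of each is given. KRT18, a keratin of simple epithelia, was at 8.61 against 5.64 to 7.74. KRT19 was highest in it by little, at 10.44 against 7.01 to 10.36. Other keratinocyte and epithelial markers were not highest in it, with KRT8 at 10.80 against 8.20 to 10.94 and DSP at 11.93 against 11.61 to 12.5. Other fibroblast and keratocyte markers were not highest in conjunctival clone 2. In it VIM was at 10.67 against 10.60 to 11.85 in the other clones, COL1A2 at 6.83 against 6.40 to 7.81, and FBN1 at 5.44 against 4.76 to 7.17. The mean of the 16 measured fibroblast and keratocyte markers was 6.32 in this clone and 5.71 to 6.004 in the others. The parts of RNA integrity and of these markers in the PTGS2 value were not tested. The part of the mouse feeder layer in the marker values was not tested either. IL1A was also lowest in this clone.

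Calprotectin and the related S100A12 are the products of neighbouring genes, which lie side by side in the order S100A8, S100A12 and S100A9 on chromosome 4 of the RefSeq annotation of assembly Sscrofa11.1. S100A9 was at 12.82, 13.27 and 11.25 in conjunctival clones 1, 2 and 3, against 9.94, 13.07 and 9.11 in corneal clones 1, 2 and 3. Corneal clone 2 was at the level of the 2 highest conjunctival clones, 15.5-fold above corneal clone 3, and the other corneal clones were below every conjunctival clone. The means were 12.45 ± 1.06 in conjunctival clones and 10.70 ± 2.09 in corneal clones, a difference of 1.74 (SE 1.05) or 3.35-fold. Conjunctival clones were above the corneal clones of their number in 3 of 3 pairs, by 2.88, 0.21 and 2.15.

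S100A8, the partner subunit, was at 6.98, 7.48 and 6.99 in conjunctival clones 1, 2 and 3, against 6.40, 7.83 and 5.55 in corneal clones 1, 2 and 3. S100A12, a calcium-binding protein that acts as an extracellular alarm signal on the receptor AGER, was at 8.01, 8.19 and 7.80 in conjunctiva, against 7.30, 8.34 and 6.22 in cornea. For both genes corneal clone 2 was the highest of all 6 clones and corneal clone 3 the lowest. The conjunctival clones lay close together, with an SD of 0.28 for S100A8 and 0.19 for S100A12, while the corneal clones spread with an SD of 1.15 and 1.06. The tissue differences were 0.56 (SE 0.54) for S100A8 and 0.72 (SE 0.49) for S100A12, with overlap. Between clones numbered 1, 2 and 3 the differences were 0.58, -0.35 and 1.44 for S100A8, and 0.72, -0.15 and 1.58 for S100A12. Unlike for S100A9, the direction was reversed in the clones numbered 2.

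Each of the S100 differences depended on which corneal clone was in the mean. Without corneal clone 3 they were 0.03 for S100A8, 0.95 for S100A9 and 0.18 for S100A12. Without corneal clone 2 they were 1.18, 2.93 and 1.24 in the same order. No clone left out turned the sign of any of the 3. Within stations 1 and 2 they were 0.84 and 0.29 for S100A8, 2.32 and 1.73 for S100A9, and 0.70 and 0.73 for S100A12.

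The 3 S100 genes gave nearly the same order of clones. Across the 6 arrays, Pearson's r was 0.97 between S100A8 and S100A12, 0.93 between S100A9 and S100A12 and 0.92 between S100A8 and S100A9. These points share animals and culture, and r is given as a description. Corneal clones 1 and 3 were the 2 lowest clones for all 3 genes. A secreted antimicrobial peptide and a secreted inhibitor followed a like order. The main probe set of DEFB1, which encodes a beta-defensin, was at 12.21, 12.34 and 10.69 in conjunctival clones 1, 2 and 3, against 10.66, 11.87 and 8.90 in corneal clones 1, 2 and 3. SLPI, which encodes the secretory leukocyte protease inhibitor, was at 12.16, 10.76 and 8.64 in conjunctiva, against 9.26, 11.67 and 8.51 in cornea.

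**Figure D2:**
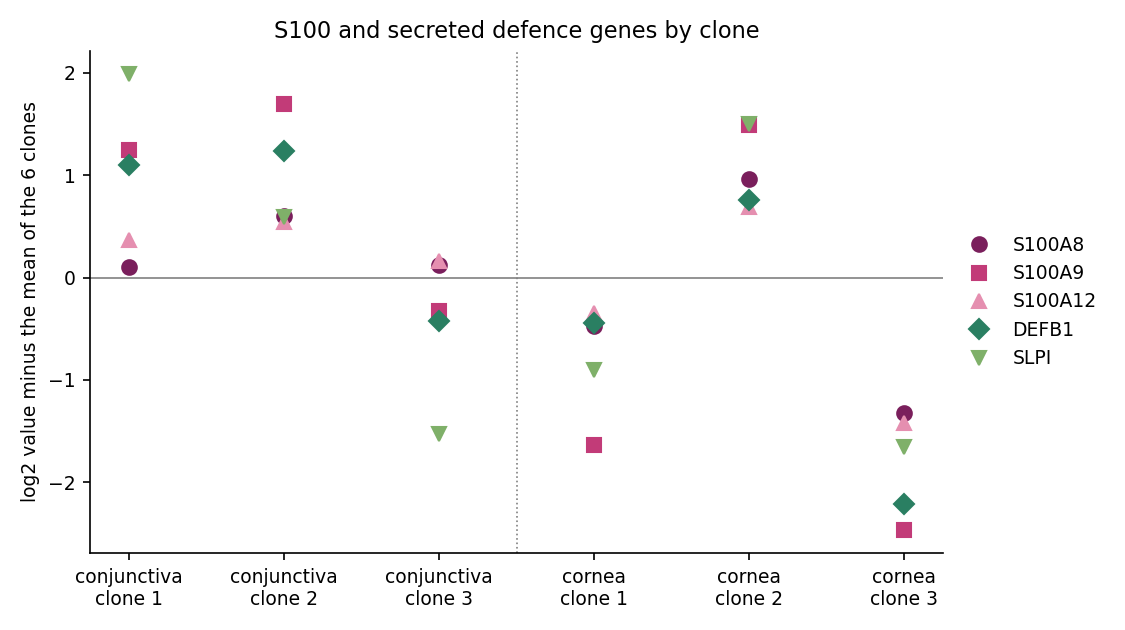
Log2 value minus the mean of the 6 clones for S100A8, S100A9, S100A12, DEFB1 (main probe set) and SLPI, in conjunctival clones to the left of the dotted line and corneal clones to the right. All 5 genes lie above 0 in conjunctival clones 1 and 2 and corneal clone 2 and below 0 in corneal clones 1 and 3, and conjunctival clone 3 runs from -1.53 for SLPI to 0.16 for S100A12.

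All 5 of these genes were above their own mean in conjunctival clones 1 and 2 and in corneal clone 2, and below it in corneal clones 1 and 3. Conjunctival clone 3 was near the mean for the S100 genes and DEFB1 and low for SLPI. The second DEFB1 probe set did not follow: it read 8.07, 6.34 and 7.71 in conjunctiva and 7.999, 9.32 and 5.34 in cornea, with conjunctival clone 2 low, so that the DEFB1 pattern rests on the main probe set. Corneal clones 2 and 3 were its highest and lowest values, as for S100A8 and S100A12. The grouping of DEFB1 and SLPI with the S100 genes was noticed after their values were seen. The mean of the leukocyte markers was 4.25, 4.51 and 4.39 in the high clones (conjunctival 1 and 2 and corneal 2, in this order), against 4.23 and 4.54 in corneal clones 1 and 3. The mean of the neutrophil and mast cell markers was 3.81, 4.01 and 3.89 in the same 3 clones, against 3.84 and 4.13 in corneal clones 1 and 3. Most of these markers were dim in all clones, as given above. Of 16 measured fibroblast and keratocyte markers 10 lay above the median of all probe sets, and the mean of that list was 5.71, 6.32 and 6.004 in the same 3 high clones, 5.88 in conjunctival clone 3, and 5.97 and 5.79 in corneal clones 1 and 3. Among them SPARC, which encodes a matrix-binding protein, was at 9.45, 11.02 and 9.67 in conjunctival clones 1, 2 and 3, against 9.49, 10.75 and 5.31 in corneal clones 1, 2 and 3. The surface glycoprotein gene THY1 was at 10.85, 12.24 and 9.98 in conjunctiva, against 10.99, 11.23 and 9.66 in cornea. SPARC has 2 probe sets and THY1 3, and only the representing one of each is given. SPARC and THY1 were highest in conjunctival clone 2, next in corneal clone 2 and lowest in corneal clone 3, as was S100A9. Other markers of the list did not follow this order. FBN1 was highest in corneal clone 3, at 7.17, against 4.76 to 6.23 in the other clones. COL1A2 was highest in corneal clone 1, at 7.81, and stood at 7.36 in corneal clone 3. VIM was highest in conjunctival clone 3, at 11.85, and lowest in corneal clone 3, at 10.60. The collagen gene COL3A1 lay between 4.08 and 4.38 and the proteoglycan gene LUM between 2.82 and 2.95 in all 6 clones. The part of any of these marker lists in the S100 values was not tested, nor was that of the mouse feeder layer in the marker values.

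ARG1 encodes arginase 1, which splits arginine into ornithine and urea and in skin is a gene of the upper, differentiating layers. It had the widest spread of the 9 genes, at 8.92, 4.97 and 3.70 in conjunctival clones 1, 2 and 3, against 7.59, 8.64 and 3.28 in corneal clones 1, 2 and 3. Conjunctival clone 1 and corneal clones 1 and 2 were high, and conjunctival clones 2 and 3 and corneal clone 3 were low. From lowest to highest clone the span was 5.64 on the log2 scale. The lowest clone of each tissue, conjunctival clone 3 and corneal clone 3, lay below the array medians, so the spans have no firm lower end and no fold is given for them.

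The ARG1 means were 5.87 ± 2.72 in conjunctival clones and 6.50 ± 2.84 in corneal clones, a difference of -0.64 (SE 1.76) that is smaller than either SD. Tissue held 1.93% of its variance between clones, against 70.1% for CXCL14. Leaving out 1 clone gave differences from -2.25 without corneal clone 3 and -2.17 without conjunctival clone 1 to 0.43 without corneal clone 2 and 0.44 without conjunctival clone 3, with -0.19 without conjunctival clone 2 and -0.09 without corneal clone 1. The within-station values of -3.26 and 2.96 had opposite signs. With the station as a block it was -0.15. Both clones numbered 3 were low, and both clones numbered 1 were high.

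ARG2, the mitochondrial arginase, did not share this pattern. Its main probe set was at 5.94, 6.07 and 5.14 in conjunctiva and 4.71, 5.46 and 5.30 in cornea, and its other 2 probe sets differed by 0.03 and 0.04 between tissues. ODC1, which turns ornithine into polyamine precursors, was at 8.50, 7.55 and 8.35 in conjunctiva and 7.96, 7.66 and 9.22 in cornea. It was highest in corneal clone 3, where ARG1 was lowest.

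**Figure D3:**
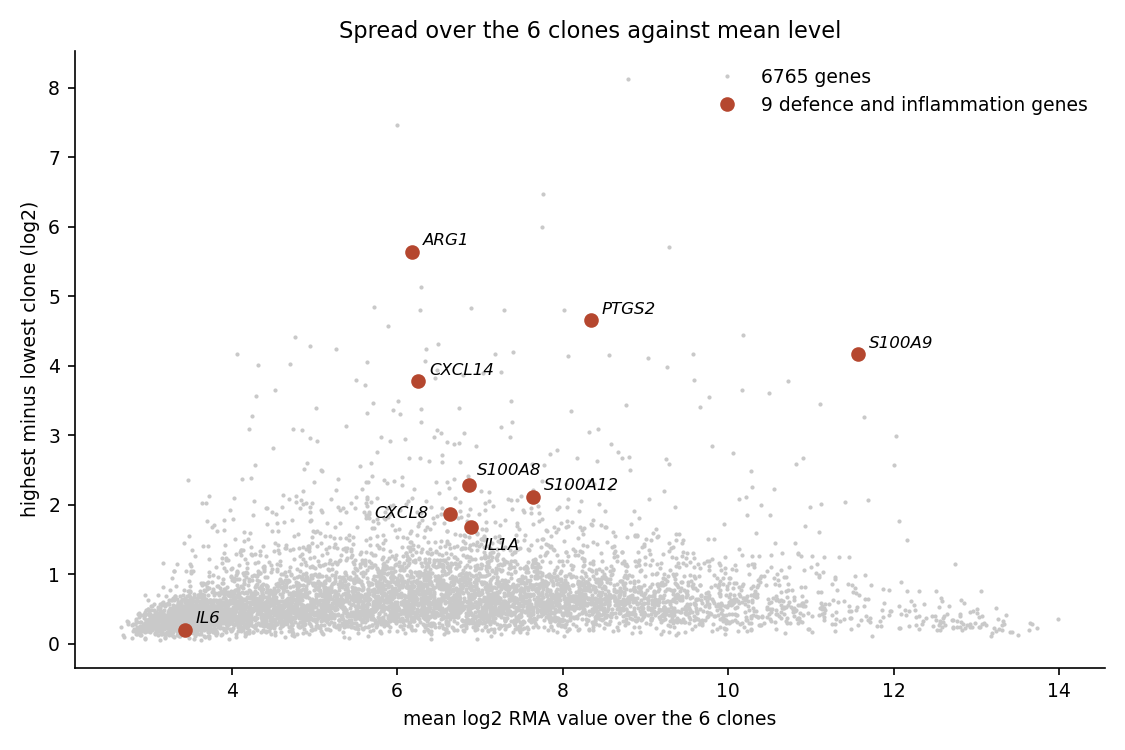
Highest minus lowest of the 6 clones (log2) against the mean log2 RMA value, with each of 6765 genes as a grey point and the 9 defence and inflammation genes in red. ARG1, PTGS2, S100A9 and CXCL14 lie above 3.7, the other S100 genes, CXCL8 and IL1A between 1.68 and 2.28, and IL6 lies at 0.20 among the dim genes.

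The 9 genes differed in how much of their spread lay between tissues. The highest and lowest clone were over 2-fold apart for 8 of the 9, the exception being IL6, and for 16.5% of all genes. The median span was 2.28 for the 9 and 0.58 for all genes (log2). The 9 were chosen with these arrays in view, so the contrast is only descriptive. Of that spread, the tissue of origin held 70.1% for CXCL14, 38.8% for PTGS2, 34.3% for CXCL8, 29.4% for S100A9, 25.0% for S100A12, 14.1% for S100A8, 4.97% for IL1A and 1.93% for ARG1. For IL6, whose spread was small, it was 30.3%, and the median of all genes was 9.83%. Of the 9 genes 5 were higher and 4 lower in conjunctiva, with a median difference of 0.56, against 3622 and 3143 of all genes and a median of 0.01.

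The genes whose profile over the 6 arrays was most like that of a member were sought among 3383 genes with at least the median level. For S100A9 they were S100A11, TAF7, SMAGP, TBC1D7 and KIAA1191 (Pearson's r 0.98 for each). S100A11 belongs to the same family, but it moved over only 0.24 on the log2 scale, against 4.16 for S100A9. For IL1A they were ATP2A2, the calcium pump of the endoplasmic reticulum (0.99), ASRGL1, UTP14A, DUSP11 and C1H18orf32. For PTGS2 they were KIAA1429, ETFDH, LOC100156293, BIRC6 and FAM213A (0.93 to 0.99), each lowest in conjunctival clone 2. These also moved far less, KIAA1429 from 7.05 to 7.31 and BIRC6, the widest of them, from 6.78 to 7.88. PTGS2 ran from 5.21 to 9.86. For CXCL14 they were LOC100153925, CHST14, FAM32A, SLC38A9 and ARFGAP2 (0.91 to 0.95), whose own values moved far less. For ARG1, added after its values were seen, they were ATP6V1D, NCOR1, LOC404703, TP53I3 and TNFAIP1 (0.98 to 0.99). LOC404703 was at 9.44, 7.81 and 7.78 in conjunctiva and 9.003, 9.13 and 7.14 in cornea. With 6 points and 3383 genes searched, such values of r are a description.

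The pathways around these genes were read from 10 lists, whose 142 measured genes other than the 9 were higher in conjunctiva for 65 and lower for 77. Limma called 0 of them in either direction. Their values did not overlap between the tissues for 8 of the 142 (5.63%), beside the 6.71% of all genes given above. They differed at least 2-fold for 6 (4.23%), beside 0.887%. The lists were chosen with earlier results of these data known, so these shares were not read further. The members below are named for the largest differences in each list or for their role, and none passed.

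**Figure D4:**
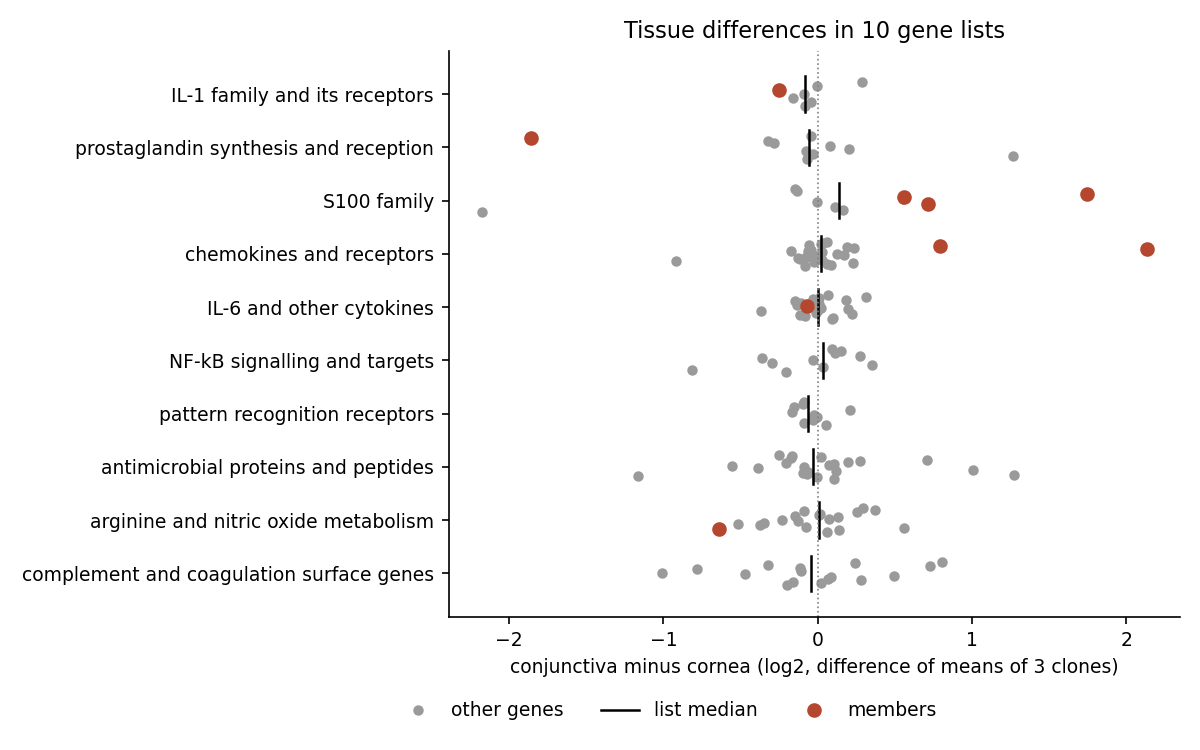
Difference between tissue means (conjunctiva minus cornea, log2, 3 clones each) of every measured gene in 10 gene lists, with the 9 defence and inflammation genes in red, other genes in grey and the list median as a black bar. The medians lie between -0.08 and 0.14, and most genes other than the red ones lie within 0.5 of 0.

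Of 7 measured genes of the IL-1 family and its receptors, 1 was higher and 6 lower in conjunctiva (median -0.08). The gene that was higher was IL1R1, the signalling receptor of IL1A, at 4.52, 4.61 and 4.43 in conjunctiva against 4.39, 4.29 and 4.02 in cornea, a difference of 0.29 at a dim level, and its second probe set differed by -0.08. IL1B, the neighbour of IL1A in the RefSeq annotation, differed by -0.002 and its dimmer second probe set by -0.17. IL18BP, which binds interleukin-18, differed by -0.16, IL18R1 by -0.09 and CASP1, the protease that activates IL1B, by -0.08.

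Of 10 measured prostaglandin genes 3 were higher and 7 lower (median -0.06). PTGES, which makes prostaglandin E2 from the product of PTGS2, was at 9.03, 9.69 and 9.05 in conjunctiva, against 8.94, 9.12 and 9.10 in cornea. Its highest value was in conjunctival clone 2, where PTGS2 was lowest. CBR1, a carbonyl reductase that can convert prostaglandin E2, was highest in the same clone, at 6.25, 8.83 and 3.98 in conjunctiva against 4.85, 4.96 and 5.44 in cornea, a difference of 1.27 (SE 1.10). PTGS1, the constitutive cyclooxygenase, differed by -0.32 and the receptor gene PTGFR by -0.28.

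Of 10 measured S100 genes 6 were higher and 4 lower (median 0.14). S100A1, a calcium sensor known from muscle, was at 4.43, 3.98 and 4.11 in conjunctiva, against 6.70, 8.22 and 4.12 in cornea, where clone 3 was at the conjunctival level, a difference of -2.18 (SE 0.94). S100A4 was at 9.51, 10.58 and 9.69 in conjunctiva, against 9.86, 10.84 and 7.44 in cornea, with the same clones 2 and 3 of the cornea at its ends as for S100A8 and S100A12. S100A10 differed by 0.16, S100A11 by 0.11, S100B by -0.13, S100G by -0.15 and S100A14 by -0.01.

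Of 26 measured chemokine and receptor genes 14 were higher and 12 lower (median 0.02), and 8 of the 26 had a mean above the median of all probe sets. CCL27, a chemokine of skin keratinocytes, was at 6.33, 5.92 and 5.76 in conjunctiva, against 8.93, 6.73 and 5.10 in cornea, with corneal clone 1 apart. CXCL2, a neutrophil chemokine, stood apart in conjunctival clone 3, at 3.55, 3.90 and 6.36 in conjunctiva against 4.21, 4.27 and 4.74 in cornea. CXCL8 was not high in that clone. CXCL16 differed by 0.24 and CCL24 by 0.23.

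The 20 measured genes of IL-6 and other cytokines split 10 to 10 (median 0.003). IL6R, the receptor of interleukin-6, differed by -0.13, IL12B by -0.37, TNFRSF1A, a receptor of tumour necrosis factor, by 0.31, IL10 by 0.22 and IL16 by 0.19. Of 11 measured NF-kB genes 6 were higher and 5 lower (median 0.03). The adhesion gene ICAM1 was at 5.63, 6.71 and 5.74 in conjunctiva, against 6.40, 6.68 and 7.44 in cornea, a difference of -0.82 (SE 0.37). NFKBIA, the NF-kB inhibitor that NF-kB itself induces, differed by -0.36 (SE 0.49), IRAK1 by 0.35 and MYD88 by -0.30.

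Of 10 measured pattern recognition genes 2 were higher and 8 lower (median -0.06), and 2 of the 10 were above the median of all probe sets. TLR4, a receptor for bacterial lipopolysaccharide, differed by 0.21, TLR2 by -0.17, TLR6 by -0.15, TLR8 by -0.10 and the co-receptor gene CD14 by -0.09. Of 22 measured antimicrobial genes 10 were higher and 12 lower (median -0.03). The main probe set of DEFB1 differed by 1.27 (SE 0.79) and the second by -0.18, and SLPI differed by 0.71 (SE 1.09). CHI3L1, which encodes a chitinase-like secreted protein, was at 7.26, 6.50 and 6.68 in conjunctiva, against 8.96, 9.59 and 5.39 in cornea. The membrane mucin gene MUC4 was above 5 in conjunctival clone 2 alone, at 3.44, 5.29 and 3.21 in conjunctiva against 2.93, 2.96 and 3.02 in cornea.

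The 19 measured genes of arginine and nitric oxide metabolism split 10 to 9 (median 0.01). ARG2 differed by 0.56, AZIN1, an inhibitor of the protein that degrades ornithine decarboxylase, by -0.51, the citrulline-using enzyme gene ASS1 by -0.38, the spermine synthase gene SMS by 0.37, ODC1 by -0.15 and NOS2, the inducible nitric oxide synthase, by -0.13. The 16 measured complement and coagulation surface genes split 8 to 8 (median -0.04). CD59, which shields cells from complement lysis, was at 8.27, 7.91 and 7.86 in conjunctiva, against 9.23, 9.54 and 8.28 in cornea, a difference of -1.01 (SE 0.32) with a gap of only 0.01 between the nearest clones. Its second probe set differed by -0.92 with overlap. THBD differed by 0.80, CFD by -0.78 and PLAT, a plasminogen activator, by 0.73.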

How the data were processed

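Per the submitters' processing notes, the authors made the deposited log2 values with RMA, which corrects background, quantile-normalises arrays and summarises each probe set. The version of RMA, and which arrays entered it together, are not given in the sources used here. Such scaling hides changes in total RNA. The number of arrays limits the precision.

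From these values, 124 control probe sets were left out and no filter was used. Symbols came from the array annotation, 10069 probe sets having 1 symbol, 198 several and 13732 none in that table. Limma 3.58.1 in R 4.3.3 compared conjunctiva with cornea over 23999 probe sets, two-sided, with Benjamini-Hochberg adjustment. It was also run on simulated data with noise independent between arrays. That run checks the code and not how many real changes would be called. SEs are limma's moderated ones. The members and lists were chosen with earlier results of these data known. List genes named are up to 4 per list by the largest difference, plus genes set by role. Of the latter, IL1RN, IL1R2, HPGD, PTGER4, S100A7, S100A2, CXCR2, CCR6, IL6ST and TNFAIP3 were not analysed here.

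Per the labels, each tissue has clones numbered 1, 2 and 3. Deviations of same-numbered clones from their tissue means correlated over probe sets (r = 0.354, 0.169 and 0.349). Clones of different numbers were not correlated for comparison, so these values do not show that the numbers pair clones. Differences between same-numbered clones are given only as a description. The main fit, which gave the SEs and calls, did not pair the clones. Their number entered as a block only in an alternative. No label says what a shared number means. Since no label states separate cultures, p-values measure only the spread between these samples.

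Alternatives were other array scalings, the clone number or station as a block, each station alone, each clone left out, other variance models, a filter on dim probe sets and other probe sets. The fluidics module as a random block, which cannot be told apart from tissue, and the profile search for ARG1 were added after seeing the data.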

Additional observations from a re-analysis of the deposited data

How the results depend on the processing

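The count of probe sets past adjusted p 0.05 by limma was 0 in 15 of 17 alternatives, including the clone number as a replicate block (0, with 1204 at an unadjusted p under 0.05) and each clone left out (range 0 to 0). It was 2 with limma's trend and robust options and 1 with 1 probe set per gene, which tests fewer features. None of the 11 member probe sets was called in any of these fits. The replicate block leaves every difference between means as it was. Array median centring and repeated quantile normalisation turned the sign of 0 of the 9 members' differences. Under all 12 to 14 alternatives the sign held for CXCL14, PTGS2, S100A8, S100A9, S100A12 and IL6. For CXCL14, whose groups did not overlap, leaving out a clone or using the station could not have turned it. It turned in 1 for CXCL8, 2 for IL1A and 3 for ARG1, each time within a station or without a clone. The medians of the lists of S100 genes and of antimicrobial genes held their sign throughout, and those of the other 8 lists turned in 2 to 5 alternatives. The causes were not tested.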
